A study of Mus musculus with 36 samples.

Results

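The comparison described here set 3 ventricular RNA-Seq libraries of CUG960 mice that stayed on doxycycline (dox) and received an AAV9 vector for 3XMYC-MBNL2 (the MBNL2 cohort) against 3 ventricular libraries of CUG960 mice taken off dox (the +/-dox cohort), 6 libraries of 36 in the series. All animals carried both transgenes (TREDT960I homozygous, MHCrtTA hemizygous): 960 interrupted CTG repeats within human DMPK under a dox-responsive promoter, and the reverse tetracycline transactivator under the α-MHC promoter, so that the repeat RNA is induced in cardiomyocytes. Mice of the MBNL2 and +/-dox cohorts received dox from birth. At 9 weeks of age the MBNL2 cohort was injected and the +/-dox cohort was moved off dox, and tissue was taken at 21 weeks. The CUG960 +dox cohort (always on dox) and –dox cohort (never on dox), with 3 ventricular libraries each, served to place the differences. The vector carries a human MBNL2 cDNA under the human TNNT2 promoter, chosen for expression in the heart. Continued dox, the repeat RNA and the injection all differed between the cohorts compared and cannot be told apart.

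Muscleblind-like (MBNL) proteins are RNA-binding regulators of alternative splicing that are sequestered by expanded CUG repeat RNA in myotonic dystrophy type 1 (DM1), a disease in which cardiac conduction defects and arrhythmia are common. MBNL overexpression adds protein while the repeat RNA is still made, whereas withdrawal of dox removes the RNA itself. The comparison therefore asks which transcripts remain short of repeat withdrawal after the vector. Gene counts measure RNA abundance and not splicing.

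The 6 libraries held between 61820592 and 75951567 expected counts, with 22244 to 23192 genes above 0. Replicate 3 of each cohort was the Xist-high library and belonged to a separately numbered library set, in both arms alike. The study's sample list gives animals of both sexes in each of these cohorts. The scaling factors (TMM) that correct library totals for composition were 0.940 to 0.959 in the MBNL2 cohort and 0.856 to 0.902 in the +/-dox cohort, with no overlap. The 9 cardiomyocyte markers were detected in every library and summed to 53835, 61516 and 60191 counts-per-million (CPM) units in the MBNL2 cohort and to 71487, 73636 and 72830 CPM in the +/-dox cohort. No marker of fibroblasts, endothelium, smooth muscle, macrophages, B cells, T cells, adipocytes or platelets was called, while the Schwann cell marker Cdh19 was lower by 0.61 on the log2 scale, a call that was lost without MBNL2 replicate 2 or +/-dox replicates 1 or 2. In bulk tissue, fewer cells of a type and less RNA per cell cannot be told apart.

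Mbnl2, the gene supplied by the vector, was measured at 408, 327 and 371 CPM in the MBNL2 cohort and 264, 263 and 249 CPM in the +/-dox cohort. All MBNL2 libraries lay above all +/-dox libraries, with a log2 fold change of 0.51 ± 0.091 (SE, adjusted p = 0.000718, Benjamini-Hochberg adjustment of edgeR's quasi-likelihood p-values), which is under the 1.5-fold limit. The +dox libraries, which received no vector, lay at 358, 352 and 375 CPM, so the mouse gene's count did not separate injected from uninjected hearts on dox. The reads were aligned to the mouse genome, and how much of the human cDNA was counted on the mouse gene was not tested. Mbnl1 (0.06, adjusted p = 0.778) and the endogenous Dmpk gene (0.03, adjusted p = 0.90) were not called.

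At an adjusted p under 0.05 and a fold change of at least 1.5, 302 of 19231 genes tested differed between the MBNL2 and +/-dox ventricles (1.57%). Of these, 185 were higher in the MBNL2 cohort (0.962%) and 117 were lower (0.608%). The number depended on single libraries: it was 186 without MBNL2 replicate 1, 183 without +/-dox replicate 1 and 156 without +/-dox replicate 2. Within the library set that holds replicates 1 and 2 of both cohorts, 424 genes were called, and with the set as a term in the fit 356 were called, of which 298 were among the 302. The split by direction also depended on the scaling. With library totals alone, which moved the median of all genes by 0.12 on the log2 scale, 398 genes were higher and 72 lower, and on log2(TPM + 1) 229 were higher and 35 lower.

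Most of these genes also differed between the +dox and –dox ventricles. Those cohorts differ both in the repeat RNA and in dox itself, which cannot be told apart. Between them, with no library shared with the comparison, 1461 genes were called (7.6%), and 202 of the 302 genes were among them with the same direction, 66.9% of the 302 and 13.8% of the 1461. None was called in the opposite direction, and 293 of the 302 had the same sign. The count of 202 fell to 134 and 121 without +/-dox replicates 1 and 2. For reference, the +/-dox ventricles differed from –dox in 6 genes (0.0312%), while the +dox ventricles differed from +/-dox in 1270 (6.6%) and the MBNL2 ventricles differed from +dox in 292 (1.52%). These last contrasts share libraries with the comparison and are given side by side only.

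**Figure D1:**
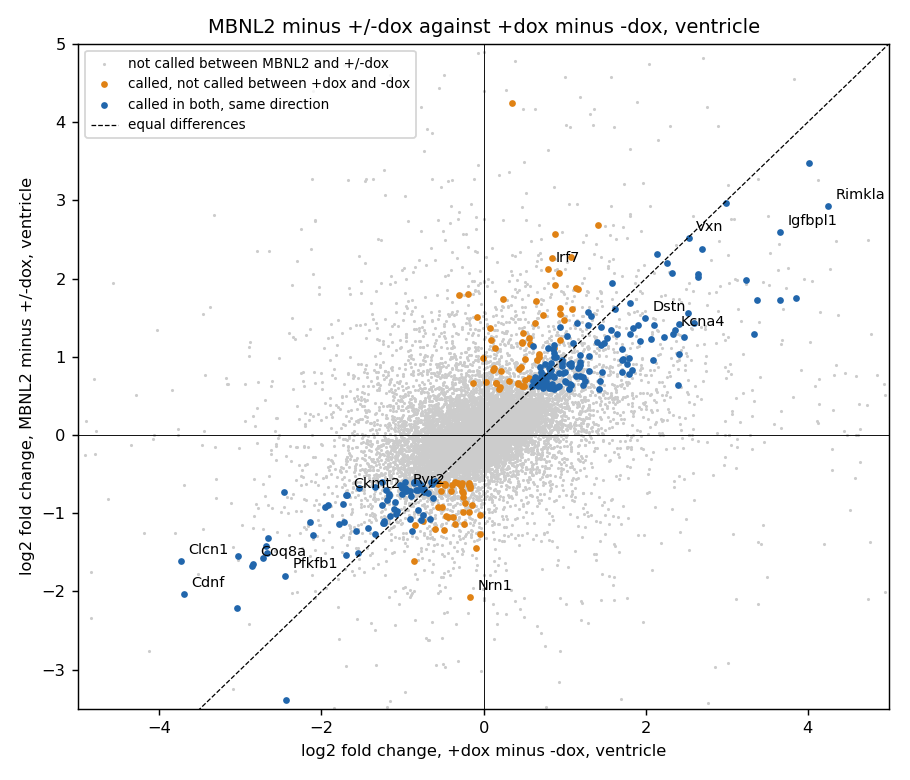
Each point is 1 of the genes tested in the ventricle; the horizontal axis gives the log2 fold change of +dox minus –dox, the vertical axis that of MBNL2 minus +/-dox, blue and orange mark the called genes that were and were not called between +dox and –dox, and the dashed line marks equal differences. Called genes lie mostly at the upper right and lower left, with 293 of the 302 having the same sign on both axes; 87 genes, 6 of them called, lie outside the plotted range.

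The remaining share of a gene is its MBNL2 minus +/-dox log2 fold change as a percentage of its +dox minus –dox log2 fold change, so that 0% stands for the level after withdrawal and 100% for a difference as large as the one between the +dox and –dox cohorts. Over all 1461 genes called between +dox and –dox, the median remaining share was 40.3% (quartiles 19.1% and 60.8%). It was 41.2% for the 794 genes that were higher in +dox and 39.1% for the 667 that were lower. At the extremes, 195 genes kept at least 75% and 448 kept under 25%. In the 202 genes called in both contrasts, which were selected for a large difference, the share ranged from 26.6% to 187% with a median of 78.2%.

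**Figure D2:**
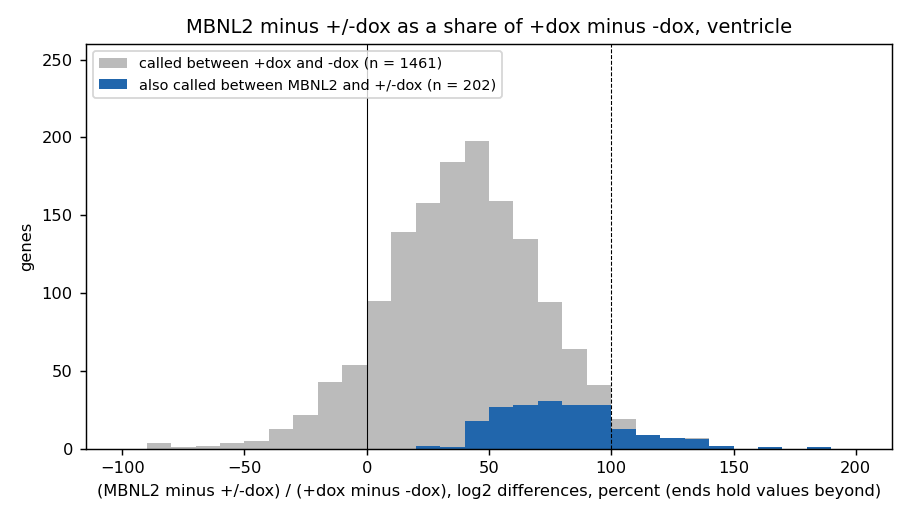
The distribution of the remaining share, in percent, over the 1461 genes called between +dox and –dox ventricles, with the genes also called between MBNL2 and +/-dox shown separately. The median over all 1461 genes is 40.3%, and 448 genes lie under 25%.

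Leading differences among genes with a described product were in genes at a low level in the ventricle after withdrawal of dox. Rimkla (chr4:119465283-119492628, minus strand, GRCm38), which encodes an enzyme that joins glutamate to N-acetylaspartate, was at 5.71, 9.53 and 10.8 CPM in the MBNL2 cohort and 1.05, 0.926 and 1.43 CPM after withdrawal. In the +dox cohort it reached 17.2, 17.9 and 22.0 CPM. Every MBNL2 library thus lay between the +/-dox and the +dox ranges. The difference was 7.61-fold (log2 2.93 ± 0.25 SE, adjusted p = 1.31e-08) and left 68.9% ± 7.28 (SE) of the +dox minus –dox difference, which is the change that the shares below refer to.

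Vxn (vexin, chr1:9601199-9627143, plus strand), a regulator of neural differentiation, was at 25.2, 24.8 and 25.9 CPM with the vector and 5.07, 3.91 and 4.21 CPM after withdrawal. Its +dox libraries were at 26.6, 25.7 and 28.3 CPM. The MBNL2 libraries were close to the +dox range and about as tightly spread, and the remaining share was 99.5% ± 7.02 (SE) at a 5.74-fold difference (adjusted p = 5.95e-15). Vxn overlaps an antisense transcript, and the strand setting of the counting is not given in the sources used here. Igfbpl1, a member of the insulin-like growth factor binding protein group, was at 4.03, 5.12 and 5.54 CPM against 0.835, 0.624 and 0.942 CPM, with 71.1% remaining.

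Dstn, which encodes the actin-depolymerizing protein destrin, was among the most abundant of the genes that were higher. It was measured at 229, 226 and 231 CPM in the MBNL2 cohort, 78.1, 81.6 and 84.0 CPM in the +/-dox cohort and 364, 359.5 and 346 CPM in the +dox cohort. The 3 cohorts did not overlap, and 74.9% ± 9.24 (SE) of the change remained (log2 1.49 ± 0.15 SE, adjusted p = 1.33e-07). The means of 2 cyclins followed the same order of cohorts. Ccnd2 (cyclin D2) was at 189, 249 and 215 CPM against 122, 108 and 102 CPM after withdrawal and 377 to 419 CPM in +dox, and Ccne1 (cyclin E1) was 4.16-fold higher (adjusted p = 1.13e-05) with 77.7% remaining. None of 20 DNA replication and none of 20 mitosis genes was called, while 12 and 8 of them were higher in +dox than in –dox, where 4.13% of all genes were higher. The median log2 fold change of the DNA replication list was 0.18, with 15 of 20 genes positive, against 0.79 for +dox minus –dox. For the mitosis list it was 0.63, with 19 of 20 positive, against 1.26. At an unadjusted p under 0.05, 3 and 2 of them passed here, compared with 3528 of all 19231 genes (18.3%), and DESeq2 called 0.

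Cdnf and Coq8a were among the genes that were lower with the vector. Cdnf (chr2:3513030-3526376, plus strand) encodes a secreted and endoplasmic reticulum-resident neurotrophic factor. It was measured at 11.5, 7.28 and 7.20 CPM in the MBNL2 cohort and 36.5, 37.4 and 32.4 CPM in the +/-dox cohort, while +dox libraries held 2.51 to 2.99 CPM and –dox libraries 30.6 to 39.1 CPM. All MBNL2 libraries lay above +dox and below +/-dox. The log2 fold change against +/-dox was -2.03 ± 0.22 (SE, adjusted p = 1.17e-06), with 55% of the change remaining.

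Coq8a (chr1:180165238-180199602, minus strand), which is required for coenzyme Q synthesis, was at 269, 218 and 194 CPM with the vector, 745, 727 and 655 CPM after withdrawal and 65.2 to 112 CPM in +dox. It followed the same order, with a log2 fold change of -1.64 ± 0.18 (SE, adjusted p = 1.44e-06) and 57.8% remaining. Kbtbd12 (chr6:88545114-88637950, minus strand), a kelch-repeat protein, was at 48.7, 40.6 and 40.0 CPM against 104, 102 and 88.7 CPM, close to the +dox libraries at 35.3 to 40.1 CPM. Its remaining share was 83.4% ± 10.3 (SE).

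**Figure D3:**
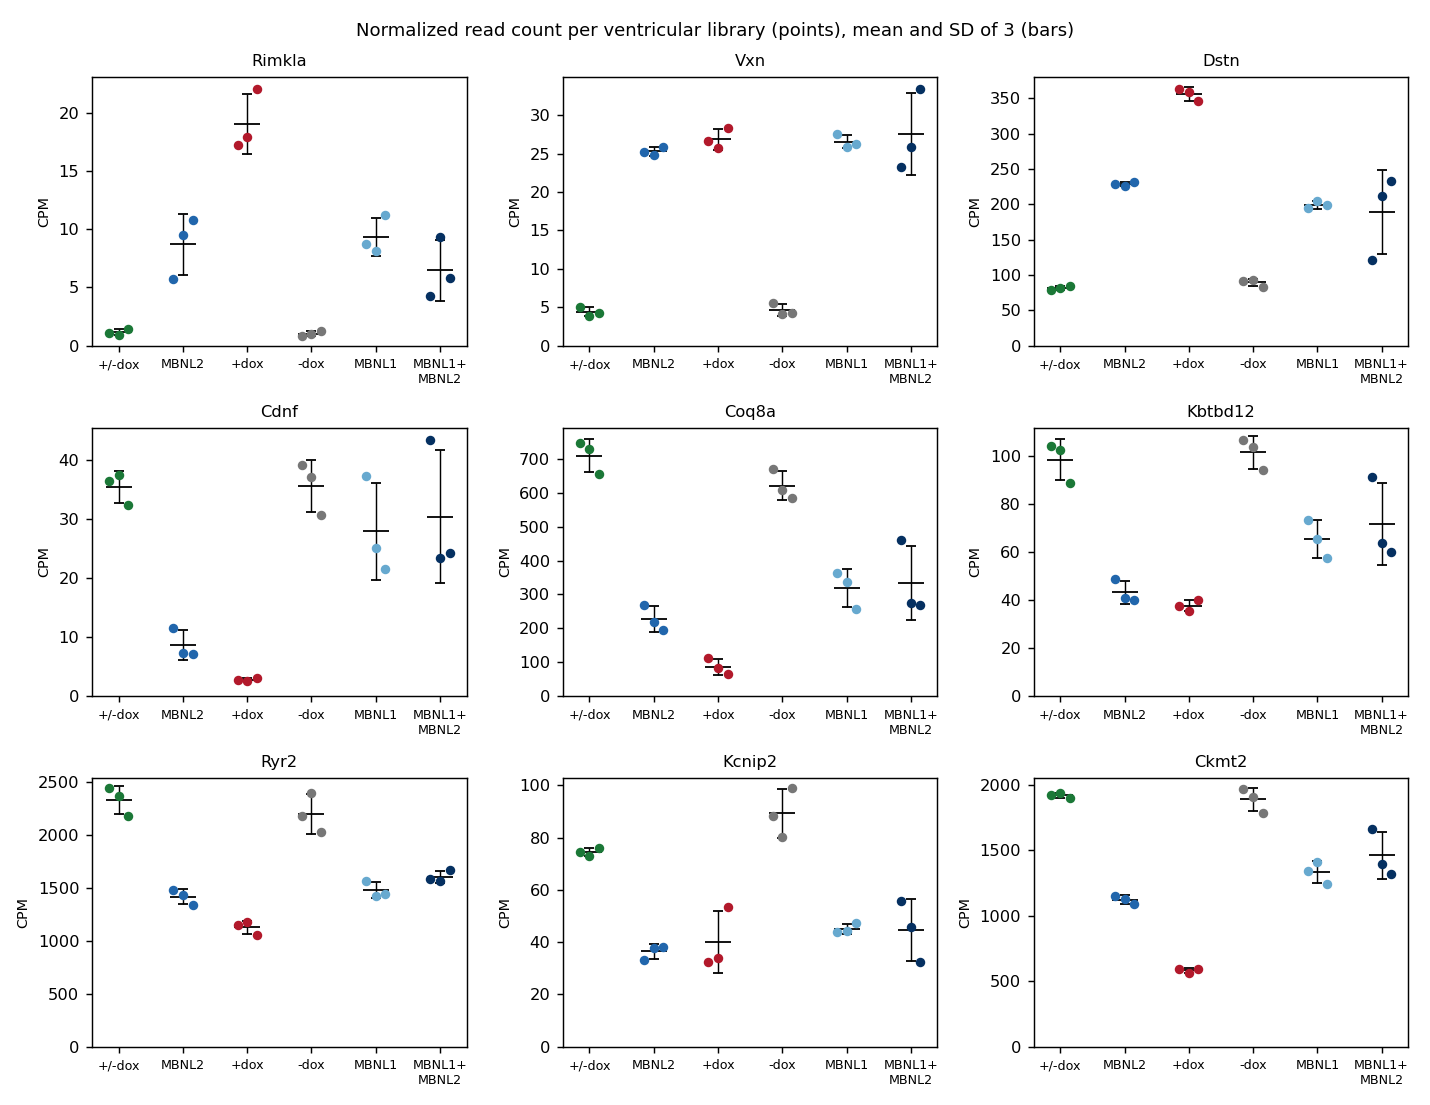
CPM of Rimkla, Vxn, Dstn, Cdnf, Coq8a, Kbtbd12, Ryr2, Kcnip2 and Ckmt2 in each of the 18 ventricular libraries by cohort, MBNL1 and MBNL1+MBNL2 included. Points are libraries and bars give the mean and SD of 3. Dstn, Rimkla and Cdnf sit between the +/-dox and +dox libraries in all 3 MBNL2 libraries, while Vxn lies next to the +dox libraries.

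Ion channel genes were called in both directions. Of 38 potassium channel and subunit genes tested, 1 was higher and 3 were lower, against 0.962% and 0.608% of all genes tested. Kcnip2 encodes KChIP2, the auxiliary subunit of the channels that carry the transient outward current. It was at 33.3, 37.7 and 38.3 CPM in the MBNL2 cohort and 74.5, 72.9 and 76.2 CPM in the +/-dox cohort, a 2.04-fold deficit with no overlap (adjusted p = 0.00115). The +dox libraries lay at 32.3, 34.1 and 53.6 CPM, which contain the MBNL2 values, and 89.1% ± 21.6 (SE) of the change remained.

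Kcnv2, a modifying subunit that forms no channel on its own, was at 10.5, 11.6 and 9.76 CPM against 36.3, 31.8 and 26.8 CPM (log2 -1.57 ± 0.25 SE, adjusted p = 0.000318). Kcna4, the gene of the pore-forming subunit Kv1.4, was higher, at 3.32, 4.26 and 4.49 CPM against 1.72, 1.47 and 1.71 CPM, and remained at 55.5% ± 8.84 (SE) of its change. Kcnj2, which encodes the inward rectifier Kir2.1, was lower by 1.56-fold (adjusted p = 0.000198), although it was not called between +dox and –dox (log2 -0.18). Its call was lost without MBNL2 replicate 1 and without +/-dox replicate 2.

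Of 10 sodium channel subunit genes 1 was called, against 1.57% of all genes tested. Scn10a, expressed mainly in sensory neurons, was lower by 1.28 on the log2 scale at 1.01 to 1.54 CPM against 2.19 to 3.80 CPM (adjusted p = 0.0147), a call that was lost without MBNL2 replicate 1, MBNL2 replicate 2 or +/-dox replicate 3. Of 16 calcium channel subunits 2 were higher, against 0.962% of all genes tested. Cacna1d was higher by 0.74 on the log2 scale (adjusted p = 0.00169, 60.5% remaining). Cacna2d2 was higher by 1.37 (adjusted p = 0.0473), and this call was lost when any library other than MBNL2 replicate 2 was left out. Clcn1, the chloride channel of skeletal muscle, was lower by 3.05-fold at under 3 CPM in every library of the comparison.

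Genes of calcium release divided. Ryr2 (chr13:11553102-12106945, minus strand), the calcium release channel of the sarcoplasmic reticulum, was measured at 1479.7, 1429.6 and 1338 CPM with the vector and 2443, 2369 and 2182 CPM after withdrawal, and the +dox libraries held 1059.8 to 1174 CPM. Each MBNL2 library lay below each +/-dox library and above each +dox library, a log2 fold change of -0.72 ± 0.070 (SE, adjusted p = 7.1e-08) that left 74.7% ± 9.12 (SE) of the change. Asph, whose locus also encodes the Ryr2-associated protein junctin, was higher at 365, 375 and 372 CPM against 267, 259 and 274 CPM, a 1.39-fold difference under the limit (adjusted p = 0.000853). Camk2b was higher by 1.60-fold (adjusted p = 0.0133), a call that was lost without MBNL2 replicate 2, +/-dox replicate 2 or +/-dox replicate 3. Over the 32 genes of the calcium release and uptake list the median log2 fold change was 0.02, against 0 over all genes tested. None of 19 pacemaker and conduction genes was called by edgeR or DESeq2, and 2 passed an unadjusted p of 0.05, against 18.3% of all genes tested. Hcn4, which encodes a pacemaker channel, ranged from 19.4 to 44.6 CPM against 9.31 to 18.5 CPM and did not pass (log2 1.01, adjusted p = 0.312).

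Of 32 cardiac sarcomere genes, 1 was higher and 1 was lower, against 0.962% and 0.608% of all genes tested. Tnnt2, cardiac troponin T, was at 3784, 3804 and 3885 CPM in the MBNL2 cohort and 6045, 6049.8 and 5547 CPM in the +/-dox cohort. The +dox libraries lay at 3459.7 to 4074 CPM, around the MBNL2 values. The difference was 1.54-fold (adjusted p = 8.38e-05). Its +dox minus –dox difference was -0.49 (adjusted p = 0.000257), under the fold limit. Tpm2, a tropomyosin, was higher at 52.1 to 96.5 CPM against 32.0 to 36.2 CPM, and this call was lost without MBNL2 replicate 1. Ckmt2, the sarcomeric mitochondrial creatine kinase, was at 1154, 1126 and 1090.1 CPM against 1922, 1935 and 1902 CPM, with +dox libraries at 560.4 to 595 CPM. All 3 cohorts were separate, and 45.6% ± 7.37 (SE) of the change remained (adjusted p = 6.81e-05).

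Rbfox1, a splicing regulator, was lower (11, 13.3 and 13.6 against 28.3, 27.5 and 20.9 CPM, log2 -1.01, 93.5% ± 24.0 SE remaining). It was the only called gene of 22 splicing regulators, while 1.57% of all genes tested were called. Herpud1 and Fbxo32, which take part in protein degradation at the endoplasmic reticulum and in muscle atrophy, were lower by 0.63 and 0.64 on the log2 scale, and both calls were lost without +/-dox replicate 2. Adra1a, the α1A-adrenergic receptor, was lower by 0.78 and Ppp1r1a, a phosphatase inhibitor, was higher by 0.81, a call that was lost without +/-dox replicate 2. Uchl1, a ubiquitin hydrolase on the list of hypertrophy and fetal genes, was higher by 0.87, a call that was lost without MBNL2 replicate 1. Gdf15 and Fstl3, of the TGF-β pathway list, were higher by 1.87 and 1.17. Gdf15 was at 6.37 CPM in MBNL2 replicate 1 and 2.15 and 2.72 CPM in the other two, against 0.813 to 1.23 CPM after withdrawal. The calls of Gdf15, Fstl3, Adra1a, Nupr1, a stress-induced nuclear protein (0.97), and Rcan1, a calcineurin inhibitor (0.67), were lost without MBNL2 replicate 1, among other libraries.

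**Figure D4:**
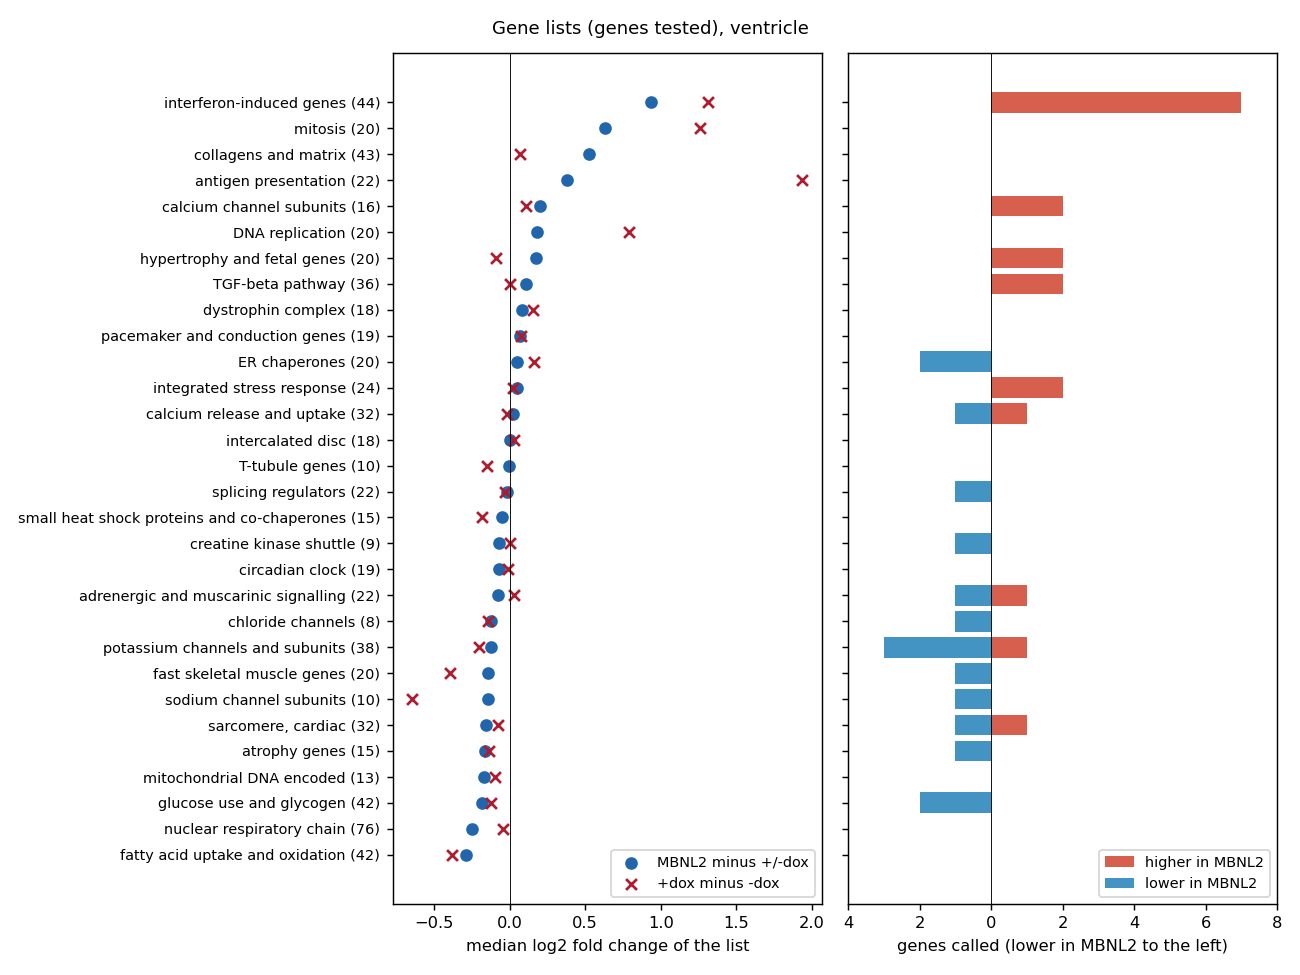
For each gene list, the median log2 fold change of MBNL2 minus +/-dox and of +dox minus –dox in the ventricle (left, points and crosses), with the numbers of members called higher or lower in MBNL2 (right, bars). The interferon-induced list has the medians 0.93 and 1.31, and the nuclear respiratory chain list -0.25 and -0.05.

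No gene of the nuclear respiratory chain list was called by edgeR or DESeq2, but the list shifted down by a small and regular amount. Of its 76 genes, which encode subunits of complexes I to V, 34 were lower at an adjusted p under 0.05 without the fold limit, against 605 of all genes tested (3.15%). In 66 of the 76 every MBNL2 library lay below every +/-dox library, against 14.3% of all genes tested. The summed level was 32426, 34746 and 35469 CPM with the vector and 41209, 41474 and 40673 CPM after withdrawal, with no overlap. The –dox libraries held 39018 to 39761 CPM and the +dox libraries 36147 to 37864 CPM, so the MBNL2 libraries were also below both of these ranges, while the +/-dox libraries were above every library of the other 5 ventricular cohorts. The same held for the +/-dox sums of the cardiomyocyte markers, which were 63009 to 65767 CPM in the –dox cohort. At an unadjusted p under 0.05, 55 of the 76 passed, against 18.3% of all genes tested. The median log2 fold change was -0.25 against +/-dox, and it was -0.05 for +dox minus –dox and -0.02 for the same comparison in the atria.

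Sdha, a subunit of succinate dehydrogenase, was at 958, 1039 and 1097 CPM against 1419, 1408 and 1317 CPM (log2 -0.42 ± 0.081 SE, adjusted p = 0.00156). Cox7a1, a muscle subunit of cytochrome c oxidase, was at 310.3, 343 and 379 CPM against 446, 461 and 449 CPM. The count of 34 was 8 without MBNL2 replicate 1, 17 and 12 without +/-dox replicates 1 and 2, 22 without +/-dox replicate 3, 12 with library totals alone and 4 on log2(TPM + 1). The median stayed negative under all of these, between -0.26 and -0.09. The scaling factors and the summed cardiomyocyte markers given above move with this list, and their part in it was not tested.

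Fuel use genes were lower in smaller numbers. Of 42 genes of glucose use and glycogen, 2 were called lower, against 0.608% of all genes tested. They were Pfkfb1, a regulator of glycolytic flux (1.48 to 3.53 against 4.58 to 12.2 CPM, log2 -1.80, adjusted p = 0.0035), and Pygb, a glycogen phosphorylase (log2 -0.59, adjusted p = 0.000899). Pygb was lost without MBNL2 replicate 1 and without +/-dox replicates 1 and 2. Without the fold limit 11 were lower, against 3.15% of all genes tested. Among them was Slc2a4, the insulin-responsive glucose transporter (-0.56, adjusted p = 9.47e-05). The count of 11 ranged from 0 to 17 over the alternative settings, which include a test against a 1.5-fold change and the removal of single libraries. Of 42 fatty acid uptake and oxidation genes 0 were called by edgeR, and 22 passed an unadjusted p under 0.05, against 18.3% of all genes tested. DESeq2 called 4 of them lower, of 151 genes lower in all. In 20 of the 42 every MBNL2 library lay below every +/-dox library, against 14.3% of all genes tested. Without the fold limit 6 were lower by edgeR, again against 3.15% of all genes tested, including Hadhb (-0.51) and Lpl (-0.35). The count of 6 ranged from 0 to 21 over the same settings. The list median was -0.29, against -0.38 for +dox minus –dox.

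Interferon-induced genes were the list with the most called members, 7 of 44 higher and 0 lower (0.962% of all genes were higher). The list consists of antiviral genes whose promoters are switched on by interferon signalling. Its median log2 fold change was 0.93, and it was 1.31 for +dox minus –dox. There 21 members were higher, against 4.13% of all genes. The level of some of these genes differed among replicates. Irf7, a transcription factor of the interferon response, was at 21.2, 19.5 and 4.05 CPM in MBNL2 replicates 1, 2 and 3 and at 3.37, 2.27 and 4.60 CPM in the +/-dox cohort.

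Isg15, a ubiquitin-like protein, was at 5.33, 3.92 and 0.929 CPM against 1.11, 1.06 and 1.14 CPM, and Ifi44 was at 8.88, 6.44 and 1.37 CPM against 0.881, 0.926 and 1.67 CPM. For Irf7, Isg15 and Ifi44, replicates 1 and 2 of the MBNL2 cohort were thus above the +/-dox range, and replicate 3 was within or near it. Ifit2, an RNA-binding antiviral protein, was higher in all 3, at 38.1, 34.4 and 19.0 CPM against 15.2 to 16.9 CPM. Oasl2, Usp18 and Ifi27l2a were the other called members. The 7 calls came to 0 without MBNL2 replicate 1, without MBNL2 replicate 2 and without +/-dox replicates 1 or 2, to 2 without +/-dox replicate 3 and to 13 without MBNL2 replicate 3. They were 0 when only the 18 ventricular libraries were fitted. The summed level of the list was 639, 634 and 685 CPM in MBNL2 replicates 1, 2 and 3 and 334, 301 and 573 CPM in the +/-dox cohort. MBNL2 replicate 3 thus had the highest sum of the 6 libraries, unlike its level of Irf7, Isg15 and Ifi44. The sums were 328 to 8181 CPM in the +dox cohort and 309 to 477 CPM in the –dox cohort. These ranges overlap, so the list was not raised alike in all +dox libraries. None of 22 antigen presentation genes was called by edgeR or DESeq2 and 0 passed an unadjusted p of 0.05, against 18.3% of all genes tested. Of the same genes, 12 were higher in +dox than in –dox, where 4.13% of all genes were higher.

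The interferon-stimulated response element is the DNA motif through which such promoters respond. Its core was searched as 2 copies of GAAA separated by any 2 bases, on both strands of RefSeq promoter sequences (GRCm38.p6). The search ran from 250 bases before to 50 bases after each start. The core was present in 1131 of 32851 promoters (3.44%). Counted by gene, with a match in any of its promoters, it was present in 488 of 12837 genes tested that have a sequence (3.8%). Of the 27 list genes with a promoter sequence, 19 held it (70.4%). Of the 5 called genes with a sequence 1 held it, and of the 22 not called 18 held it. Windows are shown to let the matches be read against the values above: Isg15 was called, and Ifit1, Oas1a and Gbp2 were not. Capitals mark the match, each window is printed 5′ to 3′ along the gene's strand, and copies of TTTC are the same motif on the other strand. A match is a description of these letters only.
Isg15, chr4:156200877-156200906, minus strand: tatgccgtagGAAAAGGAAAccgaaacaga
Isg15, chr4:156200871-156200900, minus strand: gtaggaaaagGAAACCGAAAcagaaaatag
Ifit1, chr19:34640775-34640804, plus strand: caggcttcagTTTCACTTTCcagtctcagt
Oas1a, chr5:120907520-120907549, minus strand: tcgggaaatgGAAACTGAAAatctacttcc
Gbp2, chr3:142620594-142620623, plus strand: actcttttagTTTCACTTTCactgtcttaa

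**Figure D5:**
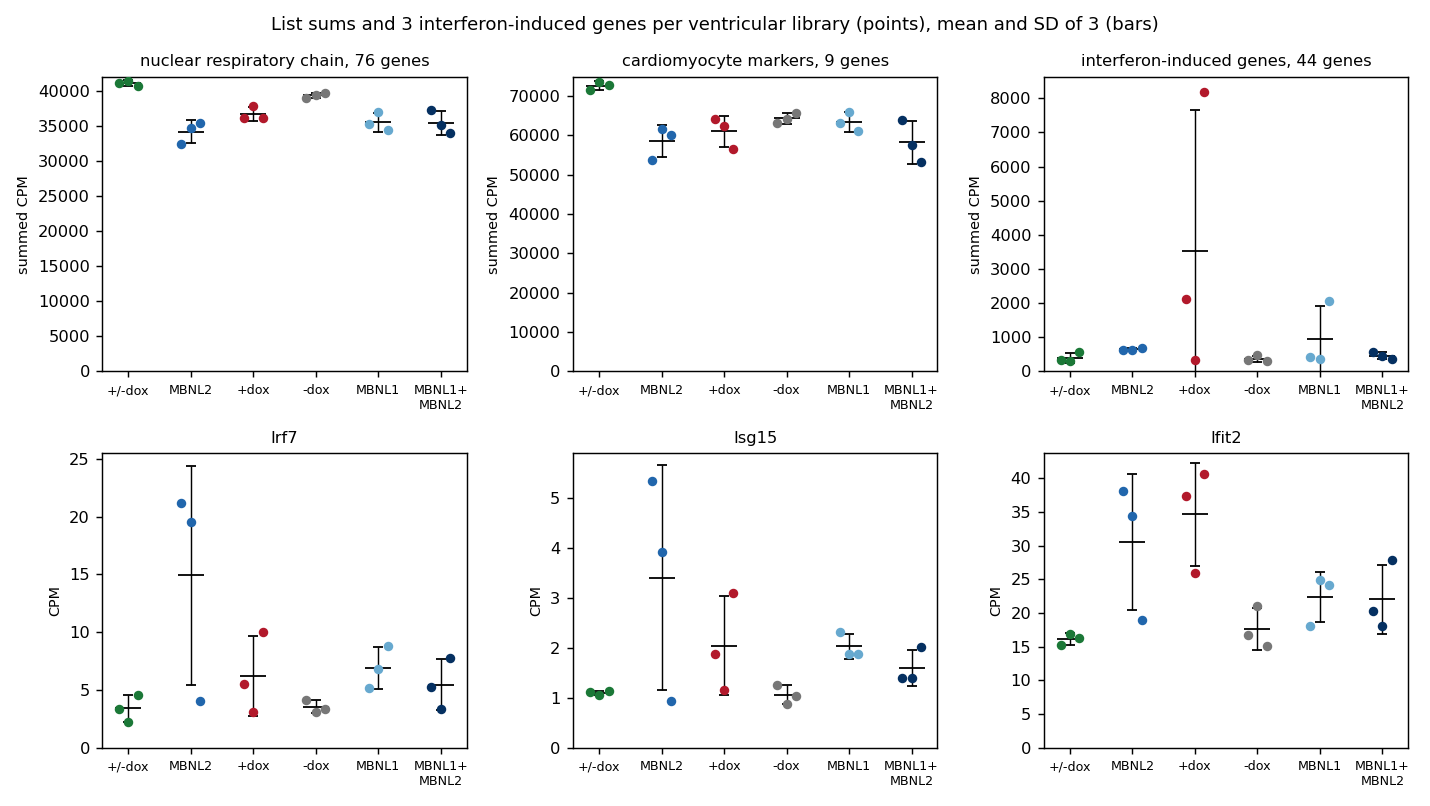
Summed CPM of the nuclear respiratory chain, cardiomyocyte marker and interferon-induced lists, and CPM of Irf7, Isg15 and Ifit2, in each of the 18 ventricular libraries by cohort, with bars for the mean and SD of 3. The respiratory chain sums do not overlap between MBNL2 (32426 to 35469 CPM) and +/-dox (40673 to 41474 CPM), and Irf7 is high in 2 of the 3 MBNL2 libraries.

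The other 100 called genes were not called between +dox and –dox. Of these, 36 had the same sign there at an unadjusted p under 0.05. Among those with the smallest difference between +dox and –dox, Nrn1 (neuritin) was at 1.58 to 1.81 CPM against 5.01, 11.6 and 5.05 CPM, a call that was lost without +/-dox replicate 2. Rit1, a small GTPase, was at 23.3, 35.8 and 36 CPM against 50.6, 54.5 and 47.3 CPM, a call that was lost without MBNL2 replicate 1. Gm10240 and Gm13370 are processed pseudogenes with identical counts in every library, so their values are uncertain and are 1 measurement. They were at 0 in all 3 +/-dox libraries and at 5.31, 6.87 and 7.58 CPM in the MBNL2 cohort, at least 131-fold higher than 3 counts per library would give. They were detected in both +dox (3.23 to 14.1 CPM) and –dox (5.34 to 12.1 CPM), so the +/-dox libraries stood apart from those of the other 3 cohorts. Another processed pseudogene, Gm10163, was at 19.1 to 20.2 CPM against 0.974 to 1.12 CPM, and its call was lost without +/-dox replicate 1 or 2.

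The same comparison in the atria called 623 genes (3.24%). The study's sample list gives the same animals for both tissues, so the atrial libraries are not independent of the ventricular ones. Of the 302 ventricular genes, 130 were called there in the same direction (43% of the 302 and 20.9% of the 623) and none in the opposite one. The count was 107 of the 202 genes also called between +dox and –dox in the ventricle (53%) and 23 of the other 100 (23%). Rimkla (2.69), Vxn (2.81), Cdnf (-2.46), Coq8a (-2.04) and Ryr2 (-0.72) had atrial log2 fold changes near their ventricular values. The difference between tissues was called for 10 genes (0.052%), and Igfbpl1 was the only one of them among the 302. That test treated the libraries of 1 animal as independent. With the animal as a block, taken as the same replicate number in both tissues, 35 genes were called, 9 of them among the 10, and Igfbpl1 was not (adjusted p = 0.0677).

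Few genes were called between the ventricular MBNL2 libraries and those of the other vectors. Against the MBNL1 cohort 3 genes were called (0.0156%, 2004 at an unadjusted p under 0.05) and against the MBNL1+MBNL2 cohort 5 were called (0.026%, 1601 unadjusted). DESeq2 called 28 and 30. All 3 MBNL1+MBNL2 libraries belong to the same library set as MBNL2 replicate 3, and the other 2 MBNL2 libraries to another, so that cohort and set are partly tied. The study's sample list gives all 3 MBNL1+MBNL2 animals as male, whereas replicate 3 of the MBNL2 cohort was the Xist-high library. Set and sex cannot be told apart within the MBNL2 cohort, so a set term also carries sex. With the set as a term in the fit, 80 genes were called against MBNL1+MBNL2 and 9 against MBNL1. Neither these counts nor those without the term are free of set and sex. Cdnf was in both sets, with mean levels of 8.66 ± 2.47 (SD, n = 3) CPM in the MBNL2, 27.9 CPM in the MBNL1 and 30.4 CPM in the MBNL1+MBNL2 cohort. The log2 fold changes were -1.69 (adjusted p = 0.000505) and -1.81 (adjusted p = 0.000141). Kbtbd12 was in both as well, at -0.60 (adjusted p = 0.0467) and -0.73 (adjusted p = 0.0024). Its call against MBNL1 was lost without MBNL2 replicate 2 or 3 and without MBNL1 replicate 1 or 2, and its call against MBNL1+MBNL2 was lost without MBNL2 replicate 3 or MBNL1+MBNL2 replicate 1. Kcna4 (chr2:107290639-107298502, plus strand) was higher than in the MBNL1+MBNL2 cohort by 0.91 (adjusted p = 0.0349), a call that was lost without MBNL2 replicate 2 or 3 and without MBNL1+MBNL2 replicate 1 or 2. The study's list of ventricular fold changes against +dox has the opposite order for Cdnf and Kcna4, with MBNL2 further from +dox than MBNL1+MBNL2. Its text reports that Cdnf returned to the –dox level with MBNL1 or MBNL1+MBNL2. The reason for this difference was not tested. Leaving out MBNL1 replicate 3 raised the count against MBNL1 from 3 to 53, and leaving out replicate 1, in which 16885 genes were above 0, lowered it to 1. Each vector cohort against +/-dox gave 302 genes for MBNL2, 167 for MBNL1 (0.868%) and 102 for MBNL1+MBNL2 (0.53%), contrasts that share the +/-dox libraries, and a difference between these counts was not tested.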

How the data were processed

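Ventricles and atria of 6 CUG960 cohorts, 3 animals each, gave 36 poly(A)-selected stranded libraries from 250 ng of total RNA, sequenced as paired reads of 150 cycles on a NovaSeq. Per the labels and the study's methods, the authors aligned reads to mm10 with STAR 2.7.10b and deposited expected counts and TPM per gene from RSEM 1.3.1. Which strand option RSEM ran with is not given in the sources used here. Expected counts were rounded, and the counts were tested with edgeR 4.0.16 (quasi-likelihood, robust, TMM, filterByExpr) in 1 fit of all 36 libraries as 12 groups, in R 4.3.3. Of 55291 gene symbols 19231 passed the filter. Calls required an adjusted p (Benjamini-Hochberg over all genes tested) under 0.05 together with a change of at least 1.5-fold, limits the authors used with DESeq2. Levels are CPM scaled by TMM. TPM, which the authors normalized for transcript length, entered only limma fits on log2(TPM + 1) and log2(TPM + 0.1). All columns were mapped to samples (unmapped columns: 0).

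The named genes were called genes with mean CPM of at least 1 and the 12 largest fold changes each way with no overlap between cohorts, every called member of a gene list, the genes named in the study for expression with Mbnl1, Mbnl2, Mbnl3 and Dmpk, the 5 largest each way with an absolute log2 fold change under 0.2 between +dox and –dox, the 5 largest of those called in the opposite direction there, the 5 largest also called against MBNL1 or in the difference between tissues, and the 3 most abundant called each way (71 genes). Genes named beyond this rule (Kcna4 and Kbtbd12 against MBNL1+MBNL2, and Sdha, Cox7a1, Slc2a4, Hadhb and Lpl) were chosen after their values were seen. The comparison, the 30 pathway lists and the 16 marker lists were chosen with earlier results of these data known. Some genes that the rule names are not reported here. Positions are from GENCODE M21 on GRCm38, and 18799 of the 19231 genes tested matched by symbol. Alternatives were DESeq2 1.42.0, limma 3.58.1 (voom), other scalings, filters and library choices. Replicates of a cohort are separate animals, each of which gave both tissues, and with 3 per cohort p-values rest on a spread shared across all groups.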

Additional observations from a re-analysis of the deposited data

Results flagged for a closer look

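The difference between the ventricular and the atrial log2 fold change of MBNL2 minus +/-dox was called for Igfbpl1 and Gja5, by the edgeR quasi-likelihood test of the difference itself. For Igfbpl1 it was 1.86 ± 0.33 (SE, adjusted p = 0.0182). The gene was 2.60 higher on the log2 scale in the ventricle, at 4.03 to 5.54 against 0.624 to 0.942 CPM, and 0.74 higher in the atria (adjusted p = 0.0135), where the MBNL2 libraries held 41.4, 54.6 and 55.9 CPM and the +/-dox libraries 29.7, 33.5 and 27.4 CPM. The call on the difference was lost without ventricular MBNL2 replicate 2 or 3, ventricular +/-dox replicate 2, atrial MBNL2 replicate 1 or atrial +/-dox replicate 2. It was also lost with the animal as a block shared by its ventricular and atrial libraries (1.85 ± 0.39 SE, adjusted p = 0.0677).

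For Gja5, which encodes the gap junction protein connexin 40 of the atria and the conduction system, the difference was 1.96 ± 0.30 (SE, adjusted p = 0.00549), and 1.97 ± 0.24 (SE, adjusted p = 0.00277) with the animal as a block. In the ventricle the change was 0.16 (adjusted p = 0.788), at 4.77 to 6.96 against 4.27 to 7.29 CPM, ranges that overlap. In the atria Gja5 was lower by 1.80 (adjusted p = 1.92e-06), at 12.7, 12.9 and 19.9 CPM against 35.8, 56.1 and 66.5 CPM.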

How the results depend on the processing

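The 302 genes called became 470 with library totals alone, 165 in the 18 ventricular libraries alone, 17 when tested against a 1.5-fold change with glmTreat, 560 with limma voom, 498 on log2(TPM + 0.1) and 1036 without the fold limit, and 156 to 276 without 1 library. Genes higher (185) were 288 with DESeq2, 398, 93, 11, 321, 428 and 431 in that order of settings, and 84 to 161 without 1 library. Genes lower (117) were 72, 72, 6, 239, 70 and 605, 35 on log2(TPM + 1), and 69 to 121 without 1 library. The 202 genes shared with +dox versus –dox were 130 in the ventricular libraries, 17 with glmTreat, 336 with voom, 745 without the fold limit, and 121 to 223 without 1 library. The atrial count of 623 was 39 with glmTreat, 1053 with voom, 2124 without the fold limit, and 396 to 666 without 1 library. The 10 genes that differed between tissues were 38 with DESeq2, 0 with glmTreat, 20 with the library set as a term, 35 with the animal as a replicate block across tissues, 36 within 1 library set, 50 with voom and 38 on log2(TPM + 1), and 3 to 14 without 1 library. Against MBNL1 the 3 genes were 28 with DESeq2, 5 without the filter, 0 in the ventricular libraries with or without MBNL1 replicate 1, 0 in the compared libraries alone, 1 without MBNL1 replicate 1, 9 with the set term, 18 within 1 set, 1 with voom and 5 on log2(TPM + 0.1), and 1 to 53 without 1 library. Against MBNL1+MBNL2 the 5 genes were 30 with DESeq2, 12 with library totals, 0 in the ventricular libraries, 1 when MBNL1 replicate 1 was also left out, 0 in the compared libraries alone, 14 without MBNL1 replicate 1 in the whole fit, 1 with glmTreat, 80 with the set term, 2 with voom, 3 on log2(TPM + 1) and 10 without the fold limit, and 1 to 11 without 1 library. The cause was not tested, except that glmTreat applies a stricter null and the fold limit removes calls by construction. The fit of 17 ventricular libraries, the animal block and the removal of libraries outside the 6 compared were chosen after seeing the data.

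Same-numbered replicates of the MBNL2 and +/-dox cohorts deviated from their means with correlations of 0.0231, 0.00929 and 0.124. Differently numbered ones correlated at -0.0855 to 0.0623. The largest value was that of replicate 3, in both cohorts the Xist-high library of the separate set. The main fit did not pair samples by number. Same-numbered ventricular and atrial libraries of these cohorts correlated at 0.140, 0.110 and 0.190 (MBNL2) and 0.0787, 0.0632 and 0.197 (+/-dox). The labels do not tie the numbers to animals. A fit with the replicate number as a block called 333 genes, of which 288 were among the 302, and 11 against MBNL1+MBNL2. No named gene changed sign under any setting. Of 63 named genes that were called, 27 kept the call without each of the 6 libraries in turn, and 9 kept it under every alternative, which includes glmTreat.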

Other observations

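Of 43 collagen and matrix genes 0 were called by edgeR, and 19 passed an unadjusted p under 0.05, against 18.3% of all genes tested. DESeq2 called 5 of them higher, of 288 genes higher in all. A positive log2 fold change was found in 41 of the 43, and the median was 0.52, against 0.07 for +dox minus –dox. In 19 of the 43 every MBNL2 library lay above every +/-dox library, against 12.7% of all genes tested. The summed level was 5962, 4656 and 3982 CPM in MBNL2 replicates 1, 2 and 3 and 3739, 3776 and 4264 CPM in the +/-dox cohort, so the sums overlapped. The median without MBNL2 replicate 1 was 0.34.

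Hemoglobin and other red blood cell genes summed to 575, 702 and 135 CPM in the MBNL2 ventricles and to 1067, 982 and 1136 CPM after withdrawal, with no overlap. None of the 5 genes was called by edgeR or DESeq2 and 0 passed an unadjusted p of 0.05, against 18.3% of all genes tested. The +dox ventricles held 156 to 469 CPM and the –dox ventricles 776 to 1635 CPM. The 5 mesothelial markers summed to 3.88 to 7.10 CPM in the MBNL2 cohort and 2.89 to 3.90 CPM in the +/-dox cohort, ranges that overlap. Transcripts encoded by mitochondrial DNA summed to 145564, 155674 and 150558 CPM against 178196, 187722 and 159328 CPM. Of the 13, 0 were called by edgeR or DESeq2, and 4 passed an unadjusted p under 0.05, against 18.3% of all genes tested.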
